A study of Mus musculus with 18 samples.

Results

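The regions described here are stretches of open chromatin that lay no more than 1000 bp from a protein-coding gene's start or far end and were listed in only 1 arm of a G9a inhibitor experiment in CD24-negative mouse lung epithelial cells. Peaks of the 3 CD24-negative lists that shared 1 bp or more were joined, giving 12957 regions, against 33312 merged regions over all 10 lists of the series. A region was G9ai-only when both inhibitor libraries and not the vehicle library had a peak in it, and vehicle-only in the opposite case. Of 4015 G9ai-only regions 730 lay at a gene end, and of 8783 vehicle-only regions 1337 did, so 2067 regions are described. Members were chosen by the presence or absence of a listed peak in each arm, so their side is a description and no test of it is given.

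The study profiled lungs of adult c57/bl6 mice aged 6 to 12 weeks, with 3 mice given the inhibitor and 3 given vehicle, by ATAC-seq on 10000 sorted cells per library. The CD24-negative gate took cells with Epcam and Sca-1 and without CD31, CD45 or CD24 on their surface. Peak lists of inhibitor replicates 2 and 3 (4173 and 4149 distinct peaks) and of vehicle replicate 3 (8870 distinct peaks) were used. Dose, route and length of treatment are unstated in the labels, and the vehicle arm has no replicate check.

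G9a is an enzyme that methylates histone H3 at lysine 9, a mark linked to gene silencing, mostly away from active promoters. ATAC-seq marks DNA that a transposase can reach, and the stretch around the start of an active gene, where RNA polymerase and its factors assemble, is the most regularly open kind of site in a genome. Many such starts lie in CpG islands, stretches rich in unmethylated CG dinucleotides that often serve genes used by every cell.

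Promoter sequences of 5 high-ranking members per side are shown because they carry the DNA that the lists call open in 1 arm. Each runs from 250 bases before to 50 bases after the start of 1 RefSeq promoter per gene (GRCm38.p6, mm10), 5′ to 3′ on the gene's own strand. Capitals mark bases inside the listed region. The promoter's start can differ from the gene end used to link regions. At R3hcc1l that gene end, at 42517980, lies upstream of the printed stretch. The authors' deposited peak score has no stated scale and is used only within a list. On the G9ai-only side they belong to Usp8, a deubiquitinase that acts on endosomes (chr2:126707078-126707377, plus strand), Micos10, a subunit of the complex that shapes the inner mitochondrial membrane (chr4:139131064-139131363, minus strand), R3hcc1l (chr19:42518555-42518854, plus strand), Pik3ca, the catalytic alpha subunit of PI3 kinase (chr3:32396815-32397114, plus strand), and Htra1, a secreted serine protease (chr7:130935953-130936252, plus strand).
Usp8: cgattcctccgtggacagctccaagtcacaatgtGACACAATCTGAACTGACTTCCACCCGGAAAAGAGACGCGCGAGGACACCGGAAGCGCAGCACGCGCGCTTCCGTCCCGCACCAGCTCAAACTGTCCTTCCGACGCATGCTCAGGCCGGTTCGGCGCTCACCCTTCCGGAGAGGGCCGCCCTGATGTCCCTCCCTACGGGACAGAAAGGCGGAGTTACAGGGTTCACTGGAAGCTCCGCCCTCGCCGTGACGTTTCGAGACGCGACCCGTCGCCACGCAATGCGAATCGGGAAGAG
Micos10: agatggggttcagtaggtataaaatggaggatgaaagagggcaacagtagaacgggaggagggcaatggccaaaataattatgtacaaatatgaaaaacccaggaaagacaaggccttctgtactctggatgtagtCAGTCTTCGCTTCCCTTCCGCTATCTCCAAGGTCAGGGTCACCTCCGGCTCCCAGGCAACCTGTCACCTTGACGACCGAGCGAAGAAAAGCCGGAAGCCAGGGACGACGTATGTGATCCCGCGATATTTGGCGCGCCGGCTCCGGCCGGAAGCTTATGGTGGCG
R3hcc1l: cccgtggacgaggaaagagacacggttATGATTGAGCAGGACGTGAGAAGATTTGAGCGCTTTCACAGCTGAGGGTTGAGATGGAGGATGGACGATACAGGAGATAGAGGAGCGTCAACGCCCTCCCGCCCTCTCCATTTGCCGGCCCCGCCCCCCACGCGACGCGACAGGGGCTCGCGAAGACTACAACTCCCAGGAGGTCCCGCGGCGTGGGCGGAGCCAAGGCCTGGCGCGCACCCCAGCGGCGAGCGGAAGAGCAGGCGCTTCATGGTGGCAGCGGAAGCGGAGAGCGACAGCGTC
Pik3ca: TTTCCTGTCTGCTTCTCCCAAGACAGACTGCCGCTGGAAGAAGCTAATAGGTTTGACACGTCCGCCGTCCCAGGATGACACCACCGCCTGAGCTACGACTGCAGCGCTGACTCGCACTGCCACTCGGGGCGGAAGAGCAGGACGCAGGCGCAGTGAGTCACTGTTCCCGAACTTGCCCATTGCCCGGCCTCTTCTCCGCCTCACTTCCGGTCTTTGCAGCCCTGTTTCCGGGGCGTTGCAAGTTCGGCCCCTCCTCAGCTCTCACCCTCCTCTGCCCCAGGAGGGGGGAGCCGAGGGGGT
Htra1: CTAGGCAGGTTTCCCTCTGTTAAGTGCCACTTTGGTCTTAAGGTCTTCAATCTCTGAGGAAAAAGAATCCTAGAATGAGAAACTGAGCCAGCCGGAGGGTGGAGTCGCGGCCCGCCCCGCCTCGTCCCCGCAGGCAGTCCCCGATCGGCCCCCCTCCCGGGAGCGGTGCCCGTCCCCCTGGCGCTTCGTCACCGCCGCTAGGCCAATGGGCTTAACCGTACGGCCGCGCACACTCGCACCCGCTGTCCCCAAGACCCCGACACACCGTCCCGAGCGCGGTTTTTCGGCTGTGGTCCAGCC

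On the vehicle-only side they belong to Fam185a (chr5:21424653-21424952, plus strand), Psma4, an alpha subunit of the proteasome core (chr9:54950609-54950908, plus strand), Trim44, a tripartite motif protein (chr2:102400851-102401150, minus strand), Mrps9, a protein of the small mitochondrial ribosomal subunit (chr1:42850983-42851282, plus strand), and Odr4 (chr1:150393031-150393330, minus strand).
Fam185a: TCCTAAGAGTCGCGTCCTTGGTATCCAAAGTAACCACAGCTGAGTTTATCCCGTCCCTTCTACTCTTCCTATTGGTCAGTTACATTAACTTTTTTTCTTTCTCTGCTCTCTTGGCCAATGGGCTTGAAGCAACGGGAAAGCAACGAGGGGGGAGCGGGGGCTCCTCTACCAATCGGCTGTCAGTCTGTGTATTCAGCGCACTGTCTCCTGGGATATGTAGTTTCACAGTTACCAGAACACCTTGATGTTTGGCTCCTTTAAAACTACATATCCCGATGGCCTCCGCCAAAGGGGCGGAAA
Psma4: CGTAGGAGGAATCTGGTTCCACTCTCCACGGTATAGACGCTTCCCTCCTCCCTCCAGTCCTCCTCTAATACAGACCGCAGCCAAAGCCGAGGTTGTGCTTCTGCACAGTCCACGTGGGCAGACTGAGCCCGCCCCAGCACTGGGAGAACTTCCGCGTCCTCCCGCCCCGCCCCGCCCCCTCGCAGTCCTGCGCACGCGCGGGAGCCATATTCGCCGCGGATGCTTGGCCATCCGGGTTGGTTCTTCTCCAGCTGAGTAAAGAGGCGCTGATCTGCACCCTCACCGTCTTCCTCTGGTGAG
Trim44: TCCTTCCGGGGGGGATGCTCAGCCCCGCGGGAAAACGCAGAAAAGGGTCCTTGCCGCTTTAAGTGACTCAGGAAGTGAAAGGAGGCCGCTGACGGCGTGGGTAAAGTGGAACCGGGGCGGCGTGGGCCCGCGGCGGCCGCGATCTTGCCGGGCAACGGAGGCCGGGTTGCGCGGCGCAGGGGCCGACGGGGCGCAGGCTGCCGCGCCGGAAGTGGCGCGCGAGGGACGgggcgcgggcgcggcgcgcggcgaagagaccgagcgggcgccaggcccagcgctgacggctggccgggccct
Mrps9: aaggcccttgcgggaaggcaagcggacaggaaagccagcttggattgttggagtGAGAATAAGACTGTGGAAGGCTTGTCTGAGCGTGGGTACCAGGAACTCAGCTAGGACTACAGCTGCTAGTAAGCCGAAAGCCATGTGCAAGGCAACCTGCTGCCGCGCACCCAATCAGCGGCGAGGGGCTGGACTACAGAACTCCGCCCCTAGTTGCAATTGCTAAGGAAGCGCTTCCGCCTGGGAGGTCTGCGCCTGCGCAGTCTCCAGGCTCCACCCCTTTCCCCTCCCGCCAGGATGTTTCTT
Odr4: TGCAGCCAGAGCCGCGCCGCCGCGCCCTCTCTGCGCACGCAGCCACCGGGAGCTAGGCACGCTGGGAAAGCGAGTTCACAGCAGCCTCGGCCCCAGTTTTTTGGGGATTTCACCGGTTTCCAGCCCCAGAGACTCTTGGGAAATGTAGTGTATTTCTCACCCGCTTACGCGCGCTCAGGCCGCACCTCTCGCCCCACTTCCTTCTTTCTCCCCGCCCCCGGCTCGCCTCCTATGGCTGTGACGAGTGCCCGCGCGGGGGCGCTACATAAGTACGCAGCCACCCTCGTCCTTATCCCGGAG

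All 5 printed G9ai-only promoters scored above 250 in both inhibitor libraries. The Usp8 region scored 304 in replicate 2 and 394 in replicate 3, and the Micos10 region scored 345 and 367. The R3hcc1l region scored 256 and 355, the Pik3ca region 266 and 323, and the Htra1 region 264 and 321. In the vehicle library the Fam185a region had the highest score of the list, 1199, followed among these by Psma4 at 918, Trim44 at 677, Mrps9 at 555 and Odr4 at 433. Of the printed promoters 9 of 10 hold the GC box GGGCGG on either strand, the exception being Micos10, and 3 of the 5 G9ai-only ones hold the ETS core CCGGAA, against 1 of the 5 vehicle-only ones. These promoters were ranked by score, so their motif counts describe the ones shown and no more.

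Before the counts, a difference between the libraries has to be stated. The vehicle list had 5 regions on chromosome Y, all at the starts of the Y-linked genes Eif2s3y, Uty and Ddx3y, with scores from 64 to 296. Each inhibitor list had 1 region on Y, near Gm52481, with scores of 186 and 96, and none at those 3 genes. The labels do not give the sex of the mice, and arm and this difference cannot be told apart in these lists. Leaving out chromosomes X and Y, as an alternative chosen after seeing the data, kept 704 G9ai-only and 1284 vehicle-only regions at gene ends, with 787 and 1376 genes. On X there were 25 G9ai-only and 48 vehicle-only regions.

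The G9ai-only regions lay at the ends of 815 of 21883 protein-coding genes (3.72%) and the vehicle-only regions at the ends of 1425 (6.51%). These shares follow from the rule and from list length, and nothing is read from them. They are the background for every gene list below, and their ratio is 1.75, so a list whose vehicle-only count is about 1.75 times its G9ai-only count follows the background. Gene ends held 18.2% of all G9ai-only regions (95% exact binomial interval, Clopper-Pearson, 17 to 19.4) and 15.2% of vehicle-only regions (14.5 to 16). All intervals here cover counting error only. With each list held to its 4149 best-scoring peaks the shares were 18.1% and 15.3%. At these equal list lengths the background was 815 genes (3.72%) G9ai-only and 694 (3.17%) vehicle-only. The ratio of 1.75 therefore does not apply to list counts given below at that setting. Across the 10 lists of the series the share of peaks at gene ends ran from 14.6% in the longest list to 24.6% in the shortest, and how much of the difference between arms goes with list length was not tested.

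Most regions sat at starts. Of the 589 G9ai-only regions whose genes have a strand in the promoter table, 504 (85.6%, 82.5 to 88.3) lay at a start, and of the 1059 vehicle-only regions 872 did (82.3%, 79.9 to 84.6). The rest, 85 and 187, lay only at the far end of a gene. The sides differed in how close they came to the start. The median distance to the nearest gene end was 241.5 bp for G9ai-only and 323 bp for vehicle-only regions, and the region's centre fell within 250 bp of the start in 45% of the former and 32.5% of the latter. Merging 2 libraries widens G9ai-only regions, so the peaks themselves were also counted: 21.1% (18.2 to 24.2) in inhibitor replicate 2 and 26.4% (23.3 to 29.8) in replicate 3 covered a gene end, against 16.4% (14.4 to 18.5) in the vehicle library. The interval of replicate 3 lies above that of the vehicle library, and the interval of replicate 2 overlaps it slightly. Median peak widths there were 138, 156 and 131 bp, and their part in the difference was not tested.

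**Figure D1:**
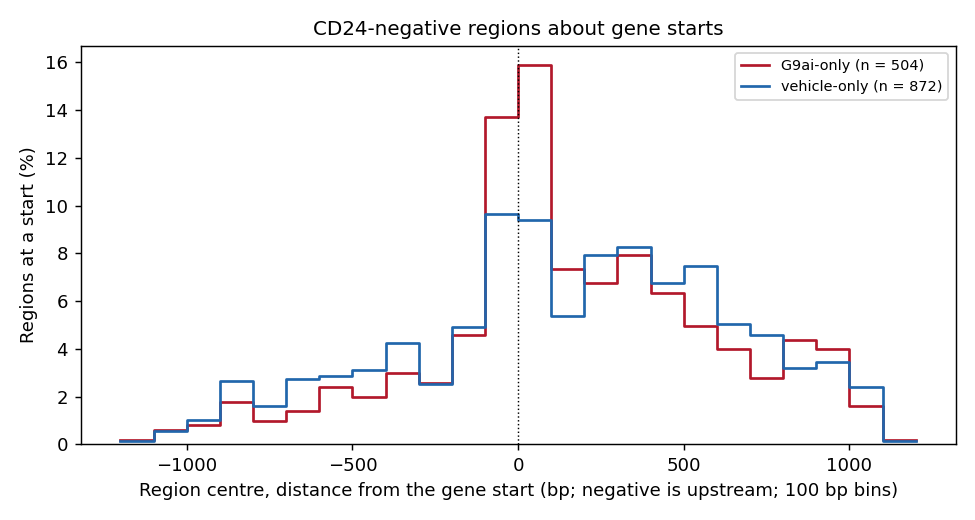
Share of the regions at a gene start, in 100 bp bins of the distance from the start to the region's centre in bp, for 504 G9ai-only (red) and 872 vehicle-only (blue) regions. The bin just downstream of the start held 15.9% of the red and 9.4% of the blue set, and on both sides more centres lay inside the gene than upstream of it.

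On the G9ai-only side 33.9% of centres lay upstream of the start, and on the vehicle-only side 36%, so on both sides most lay within the transcribed part. Starts of genes on both strands were shared by 48 G9ai-only regions (6.58%) and 68 vehicle-only regions (5.09%). A G9ai-only example is the region inside Hspd1, 374 bp from its start and 279 bp outside Hspe1, which encode the mitochondrial chaperonin and its co-chaperonin, with scores of 49 and 195. A vehicle-only example is the region over the starts of Odr4 and Tpr, the latter a nuclear pore protein. Regions at both ends of a gene longer than 2000 bp occurred in 2 genes on the G9ai-only side, Nup50 and Slc25a34, and in 18 on the vehicle-only side, among them E2f2, Adora1 and Tk1. Regions just inside the 1000 bp limit belonged to Phf21a (996 bp) and Enc1 (997 bp) on the G9ai-only side and to Rere (997 bp) and Tmem245 (999 bp) on the vehicle-only side. Just outside it were Ccnj (1003 bp), Tprgl (1004 bp), Cntrl (1002 bp) and Zfp239 (1004 bp), and the 100 bp on either side of the limit held 31 and 31 G9ai-only and 69 and 71 vehicle-only regions.

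Gene functions were read from 57 lists that cover 8244 genes. List genes as a whole sat near the background on both sides: 314 (3.81%) had a G9ai-only region and 543 (6.59%) a vehicle-only region, against 3.67% and 6.47% of the 13639 genes outside all lists. The median list held 4.55% and 7.55%, and 36 and 38 of the 57 lists were above the background. The exact intervals of the list shares took in the background for 48 of 57 lists on the G9ai-only side and 51 of 57 on the vehicle-only side, with no adjustment for the number of lists. They lay above it for 7 and 4 lists and below it for 2 and 2.

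**Figure D2:**
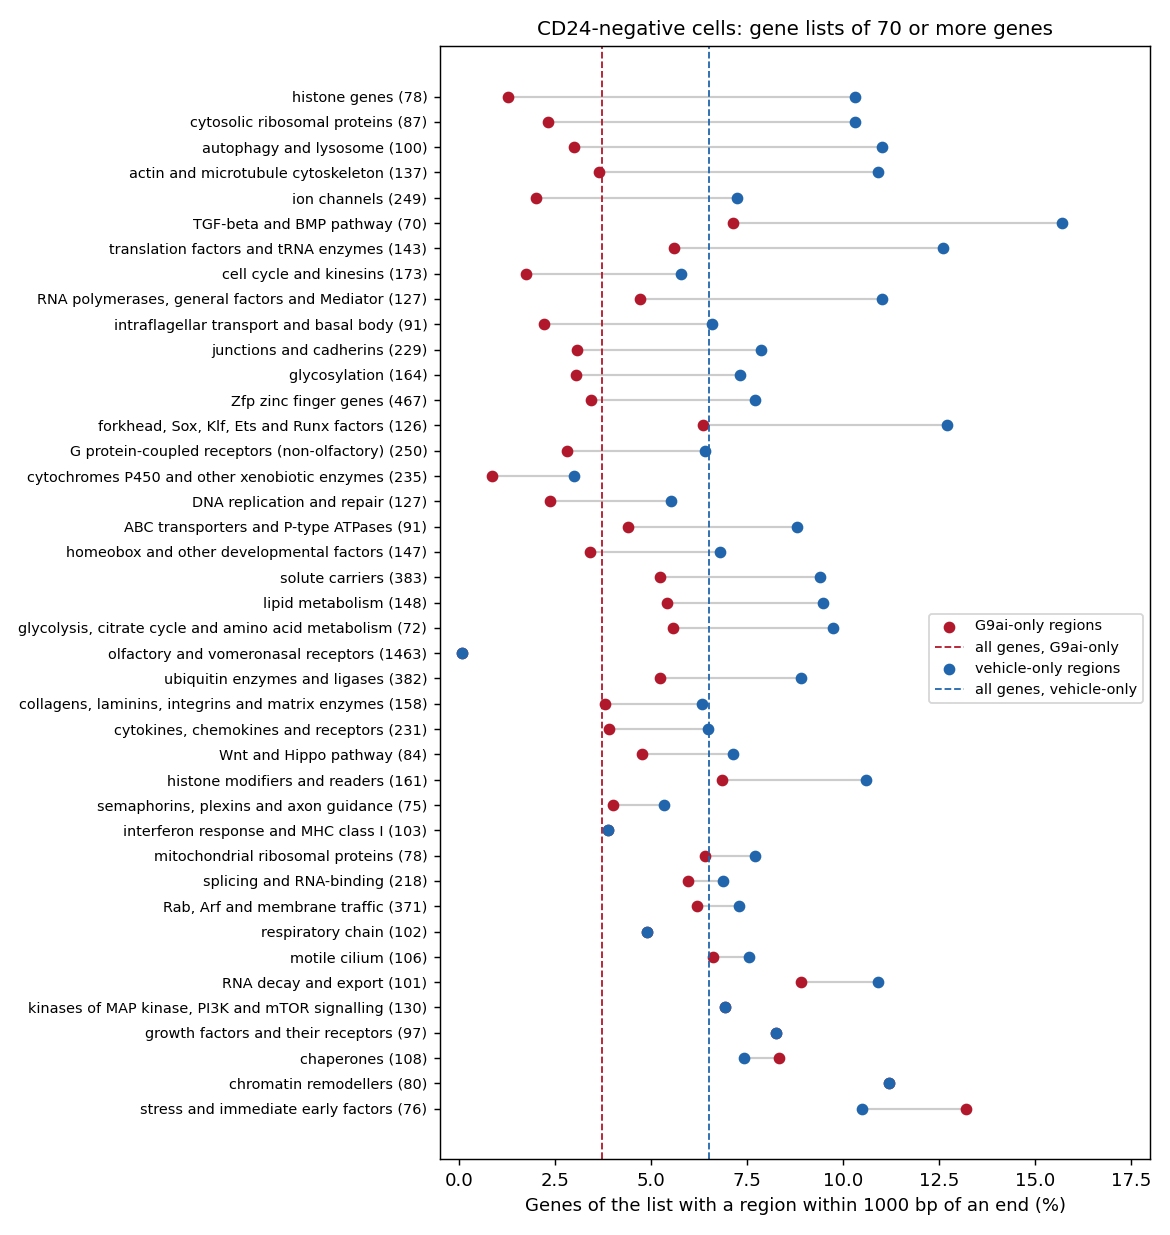
Share of the genes of each list with a region within 1000 bp of an end, for G9ai-only (red) and vehicle-only (blue) regions, in lists of at least 70 genes that are reported here (list size in brackets); dashed lines are the shares over all genes, 3.72% and 6.51%. Lists are ordered by the difference between the sides, each relative to its dashed line: histone genes and cytosolic ribosomal proteins are at the top, stress factors, chromatin remodellers and chaperones at the bottom.

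Protein synthesis genes gave more vehicle-only than G9ai-only counts, as the background does, and the intervals for ribosomal proteins took in the background on both sides. Of 87 cytosolic ribosomal protein genes, which encode the ribosome's protein parts, 9 had a vehicle-only region (10.3%, 4.84 to 18.7) and 2 a G9ai-only region (2.3%, 0.28 to 8.06). The vehicle scores were 176 at Rps10, 162 at Rpl4, 113 at Rpl36al and 110 at Rps26, whose region covers its start. The G9ai-only pair was Rps15a, with scores of 76 and 77, and Rpl7a, with 57 and 83, the latter 412 bp outside the gene. Of 143 translation factor and tRNA enzyme genes 18 had a vehicle-only region (12.6%, 7.63 to 19.2) and 8 a G9ai-only region (5.59%, 2.45 to 10.7). Vehicle-only members included Yars2, the mitochondrial tyrosyl-tRNA synthetase, scoring 168, and Trmt9b, scoring 241. Also counted was the Y-linked Eif2s3y (222), whose regions are among the chromosome Y regions described above. The G9ai-only side held Pabpc4, a poly(A)-binding protein, with 81 and 130. Eif3b, Pus3 and Vars had regions of both sides. With the vehicle list held to its 4149 best-scoring peaks, when 694 genes (3.17%) keep a vehicle-only region against 815 with a G9ai-only region, 6 of the 87 ribosomal protein genes (6.9%) and 9 of the 143 factor genes (6.29%) did.

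Protein turnover genes were described by 3 lists, whose intervals took in the background on both sides. Of 50 proteasome genes 7 had a vehicle-only region (14%, 5.82 to 26.7), namely Psma1, Psma3, Psma4, Psmd1, Psmd11, Psme3 and Psme4, and 2 had a G9ai-only region (4%, 0.488 to 13.7), the catalytic beta subunits Psmb5 and Psmb6. Psma4 scored 918 and Psmd11, a regulatory lid subunit, 204. Psmb5 scored 165 in inhibitor replicate 2 and 84 in replicate 3, and Psmb6 scored 41 and 53. At equal list lengths 4 proteasome genes (8%) kept a vehicle-only region and 1 a G9ai-only region. The Psmb6 scores are near the lowest of the 2 lists, 40 and 41. Among 382 genes of ubiquitin enzymes and ligases the counts were 34 (8.9%) and 20 (5.24%), near the ratio of the backgrounds. They included the deubiquitinases Usp9x (vehicle score 211) and Usp8, and the F-box gene Fbxo11 (104 and 96). Autophagy and lysosome genes numbered 11 of 100 vehicle-only (11%) and 3 G9ai-only (3%), but 4 of 100 at equal list lengths. Atg2b, which transfers lipid to growing autophagosomes, scored 383, and Atp6v1a and Atp6v0c of the proton pump scored 167 and 115. On the G9ai-only side stood the pump subunit Atp6v1e1, with 105 and 527, and the hydrolase Hexa, with 74 and 92.

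Chaperone genes had nearly equal counts, 9 G9ai-only (8.33%, 3.88 to 15.2) and 8 vehicle-only (7.41%, 3.25 to 14.1) of 108. At equal list lengths, a setting that shortens mainly the vehicle list, they were 9 and 2 (1.85%), so the near equality did not hold there. With the higher-scoring 50% of every library's peaks kept they were 2 and 2, where all genes numbered 287 and 736. The G9ai-only regions lay at Fkbp2, a peptidyl-prolyl isomerase of the endoplasmic reticulum (162 and 237), at the Hsp40 genes Dnajb11 (88 and 136) and Dnajb2 (63 and 139), and at Hspd1. The vehicle-only regions lay at the Hsp40 gene Dnajb1 (128), at the cytosolic chaperone gene Hsp90ab1 (114) and at the small heat shock gene Hspb6 (88). Fkbp10, of the endoplasmic reticulum, was also vehicle-only (77), so each side held both cytosolic and organelle chaperones.

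Mitochondrial lists had similar counts on both sides, where the background is 1.75 times higher for vehicle-only. Mitochondrial ribosomal proteins had 5 G9ai-only and 6 vehicle-only genes of 78, and the respiratory chain had 5 and 5 of 102. At equal list lengths, where the shares over all genes were 3.72% and 3.17%, the counts were 6 and 3 (7.69% and 3.85%), and 5 and 1 (4.9% and 0.98%). Import and inner membrane genes had 6 G9ai-only (12.2%, 4.63 to 24.8) and 4 vehicle-only (8.16%, 2.27 to 19.6) of 49. Micos10 was followed there by Chchd3, another subunit of the same membrane complex, whose region scored 755 in inhibitor replicate 2 and 87 in replicate 3. The replicates therefore placed the same promoter very differently in their lists. Mtx3 scored 111 and 93. Opa1, a fusion GTPase of the inner membrane, was vehicle-only with 202 at its far end. Of the respiratory chain, G9ai-only regions marked 3 ATP synthase genes (Atp5h, Atp5j, Atp5l), Cox11 and Ndufb4, whereas vehicle-only regions marked 4 genes of complex I (Ndufa11, Ndufs1, Ndufs3, Ndufs4) and Cox6c. All 10 are given because they are few, and some were chosen after their values were seen.

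RNA processing genes were spread over both sides. Splicing and RNA-binding genes numbered 13 G9ai-only (5.96%) and 15 vehicle-only (6.88%) of 218, and 4 of them, Ddx25, Ddx58, Prpf38b and Rbm41, had both. The Khdrbs1 region, near an end of the gene for the RNA-binding protein Sam68, was among the best-scoring of all members, with 574 and 691. Hnrnpr scored 130 and 173. On the vehicle-only side Snrnp48, a protein of the minor spliceosome, scored 185, and Prpf31, a splicing factor of the tri-snRNP, 145. The RNA helicase pair Ddx3x and Ddx3y fell on opposite sides: the X-linked Ddx3x was G9ai-only (142 and 130) and the Y-linked Ddx3y vehicle-only (188), the latter being among the chromosome Y regions described above. RNA decay and export genes had 9 (8.91%) and 11 (10.9%) of 101, and 9 and 4 at equal list lengths. They included the decapping gene Dcp1a, with 89 and 733 in the inhibitor libraries, Thoc6 of the export complex, with 131 and 122, and, on the vehicle-only side, the nuclear import gene Kpna1, with 198.

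The basal transcription machinery lay near the background. Of 127 genes for RNA polymerases, general factors and Mediator, 14 had a vehicle-only region (11%, 6.16 to 17.8) and 6 a G9ai-only region (4.72%, 1.75 to 10). At equal list lengths 5 of the 127 (3.94%) kept a vehicle-only region, near the 3.17% of all genes. Vehicle-only members were the elongation factor gene Ell3 (134), Polr1a, the largest subunit of RNA polymerase I (130), Taf15 (128) and Med28 (113). G9ai-only members included the Mediator genes Med16 (84 and 541) and Med25 (82 and 61) and Polr3a, the largest subunit of RNA polymerase III (79 and 166).

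Counts of chromatin genes differed by class, but the intervals took in the background except for G9ai-only remodellers. Histone genes had 8 vehicle-only (10.3%, 4.53 to 19.2) and 1 G9ai-only (1.28%, 0.0325 to 6.94) of 78. The 8 genes rest on 6 regions, since neighbouring histone genes shared a region, and both intervals take in the background. At equal list lengths 5 of the 78 (6.41%) kept a vehicle-only region and 1 a G9ai-only region. The core histone genes H2ac10 and H4c2 scored 228 and 180 and the linker histone gene H1f3 scored 146, each over its start, all on chromosome 13. The lone G9ai-only histone gene, H1f7, a testis linker histone, scored 100 and 136. Histone modifiers and readers had 17 (10.6%) and 11 (6.83%) of 161, close to the ratio of the backgrounds. Vehicle-only members included the acetyltransferase Kat2a (181) and the lysine 20 methyltransferase Kmt5a of histone H4 (115). G9ai-only members were led by Sirt7, a deacetylase (149 and 210), Kmt2a, a lysine 4 methyltransferase of histone H3 (141 and 148), Kdm6b, a lysine 27 demethylase (134 and 127), and Kdm2b (86 and 162). Chromatin remodellers had 9 on each side (11.2%, 5.28 to 20.3) of 80, and 9 and 3 at equal list lengths. These included Smarcal1 (136 and 333) and Srcap (112 and 88) against Arid1a, a subunit of the BAF complex (133), and Actl6a (128).

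Genes of the lysine 9 pathway itself were looked up after the values were seen. Neither Ehmt2, which encodes G9a, nor its partner Ehmt1, nor the lysine 9 methyltransferase genes Suv39h1 and Suv39h2, had an end region on either side. Wiz, a zinc finger partner of G9a, had a G9ai-only region across its start with scores of 59 and 88, as did Uhrf1, which reads lysine 9 methylation, with 77 and 172. Cbx5, the heterochromatin protein HP1 alpha, had a vehicle-only region across its start (105), and Atf7ip, a partner of the lysine 9 methyltransferase Setdb1, had a vehicle-only region inside the gene (63). The lists appear to hold mostly arm-specific peaks, so the lack of a region says nothing of whether a promoter was open.

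Transcription factor lists differed among themselves. Stress and immediate early factors had the highest G9ai-only share of the lists with at least 70 genes, 10 of 76 (13.2%, 6.49 to 22.9), with 8 vehicle-only (10.5%, 4.66 to 19.7). Its G9ai-only members included 3 genes of the Mad and Mxi family, which oppose Myc: Mxi1 (120 and 213), Mxd4 (111 and 134) and Mxd3 (156 and 90). Myc itself had vehicle-only regions near an end, scoring 114 and 64. The AP-1 genes also split, with Jun G9ai-only (99 and 145, 990 bp outside the gene) and Junb vehicle-only (143, over its start). Rela, a subunit of NF-kappaB, was G9ai-only (78 and 99), and Nfkbia, its inhibitor, vehicle-only (192). Mafg, a small Maf factor, shares its region with Sirt7. Irf2 had the highest vehicle-only score of the list, 300, over its start.

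Forkhead, Sox, Klf, Ets and Runx factors had 16 vehicle-only (12.7%, 7.44 to 19.8) and 8 G9ai-only (6.35%, 2.78 to 12.1) of 126, and 10 vehicle-only (7.94%) at equal list lengths. Vehicle-only members included Foxo1 (218), Foxq1 (160), Elk3 (129), Erg (135), Foxa3 (119) and Foxj1, the master factor of motile cilia (121). Foxj1 shares its region with Rnf157. Klf4 had 2 vehicle-only regions upstream of its start, scoring 125 and 96. G9ai-only members included Elf1 (95 and 178), Sox12 (84 and 142) and Sox2, an airway lineage factor whose region over the start scored 50 in replicate 2 and 372 in replicate 3. Homeobox and other developmental factors were near the background, with 5 (3.4%) and 10 (6.8%) of 147, among them Satb1 (97 and 109) and Meis1 (58 and 139) on the G9ai-only side and Lhx9 (184) on the vehicle-only side. Zfp zinc finger genes, the most numerous family, had 16 (3.43%) and 36 (7.71%) of 467, with Zfp882 (155 and 234) and Zfp131 (348) in the lead.

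Signalling lists did not lean the same way. TGF-beta and BMP genes had the highest vehicle-only share of the lists of at least 70 genes, 11 of 70 (15.7%, 8.11 to 26.4), with 5 G9ai-only (7.14%, 2.36 to 15.9), and 5 (7.14%) at equal list lengths. The vehicle-only genes spanned the pathway: the ligands Bmp2 (161), Bmp3 (105), Gdf5, Gdf11 and Tgfb1, the receptor Bmpr1b (185), the transducers Smad1 (111), Smad4, Smad5 and Smad9, which carry the signal to the nucleus, and the inhibitor Smad7. The G9ai-only genes were the receptor Bmpr2 (129 and 145), the repressor Ski (650 and 110), the ubiquitin ligase Smurf2 (66 and 120), Ltbp1, which holds latent TGF-beta in the matrix (76 and 82), and the ligand Gdf6. MAP kinase, PI3 kinase and mTOR genes had 9 on each side of 130 (6.92%), and 9 and 2 (1.54%) at equal list lengths. With Pik3ca, the G9ai-only side held the mTOR complex genes Mtor (92 and 130, outside the far end of the gene) and Akt1s1 (134 and 99) and the phosphatase Dusp1 (117 and 153), and the vehicle-only side Rps6kb1, the S6 kinase that mTOR activates (358). The Mtor region is shared with Exosc10, which is counted in the RNA decay and export list. Growth factors and their receptors had 8 on each side of 97 (8.25%), and 8 and 4 at equal list lengths, with Fgfr4 (69 and 155), Nrg4 (56 and 222) and Areg (43 and 108) G9ai-only and Igf1r (149), Ephb2 (145) and Fgfr3 (127) vehicle-only. Wnt and Hippo genes had 4 and 6 of 84. Tcf7 (73 and 100) and the stem cell marker Lgr5 (53 and 108) were G9ai-only, and Wnt1 (134), Wnt11 (113) and the Hippo kinase gene Lats1 (127) vehicle-only. In the Notch list Hes7 was G9ai-only (225 and 242), and Jag1 and Jag2, ligands of Notch, were vehicle-only (85 each).

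Membrane traffic genes numbered 23 G9ai-only (6.2%, 3.97 to 9.16) and 27 vehicle-only (7.28%, 4.85 to 10.4) of 371, and 23 and 14 at equal list lengths. Dennd2c, an exchange factor for Rab GTPases, had a high-scoring G9ai-only region (359 and 546), and Rab40c (106 and 221) and the retromer gene Vps26a (97 and 138) followed. On the vehicle-only side were the SNARE genes Stx16 (192) and Vamp8 (147). Actin and microtubule genes had 15 vehicle-only (10.9%, 6.26 to 17.4) and 5 G9ai-only (3.65%, 1.2 to 8.31) of 137, with 6 (4.38%) at equal list lengths. The alpha-actinin genes Actn1 (106), Actn2 (139) and Actn4 (142), which encode cross-linkers of actin filaments, were on the vehicle-only side. Myl12b, a myosin light chain (78 and 143), and Flna, a filamin (63 and 69), were G9ai-only, both over the start.

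Transport genes showed no lean beyond the background on the G9ai-only side, and solute carriers lay slightly above it on the vehicle-only side. Ion channels had 18 (7.23%, 4.34 to 11.2) and 5 (2.01%, 0.655 to 4.62) of 249, with the calcium channel gene Cacna1h (224) and the cation channel gene Trpm4 (154) against the potassium channel gene Kcna7 (114 and 93). Solute carriers had 36 (9.4%, 6.67 to 12.8) and 20 (5.22%, 3.22 to 7.95) of 383, near the ratio of the backgrounds, and 16 vehicle-only (4.18%) at equal list lengths. Their vehicle-only members included Slc45a4 (409), the dicarboxylate carrier gene Slc13a2 (372) and the glucose carrier gene Slc5a1 (207), and their G9ai-only members Slc47a2 (154 and 101) and the amino acid carrier gene Slc36a4 (85 and 135). The creatine carrier gene Slc6a8, on X, had regions of both sides.

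Metabolic lists followed the background or lay under it. Lipid metabolism had 14 (9.46%) and 8 (5.41%) of 148. The desaturase Fads2 (173) and the lipid droplet gene Plin5 (242) were vehicle-only, the acetate-activating gene Acss1 (142 and 214) was G9ai-only, and Acadl, Elovl3, Lpcat4 and Plin2 had both. Cytochromes P450 and other xenobiotic enzymes had 2 (0.851%, 0.103 to 3.04) and 7 (2.98%, 1.21 to 6.04) of 235, so both intervals lie below their backgrounds. The G9ai-only pair was Cyp2b10 (91 and 166, over its start) and Cyp4f15 (117 and 159). The 1463 olfactory and vomeronasal receptors, sensory genes in large clusters, had 1 gene on each side. Genes of the cell cycle and kinesins had 3 (1.73%, 0.359 to 4.98) and 10 (5.78%, 2.81 to 10.4) of 173, among them E2f3 (130), E2f2 (114) and Ccnd2 (102), which drive entry into S phase, on the vehicle-only side and Kif23, a kinesin of cytokinesis (117 and 102), on the other.

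Adhesion and immune lists were near the background. Matrix genes had 6 (3.8%) and 10 (6.33%) of 158, including Col5a1, with regions of both sides, and Lamb2 (134). Junction genes had 7 (3.06%) and 18 (7.86%) of 229, including the tight junction gene Tjp3 (163) and the desmosomal gene Pkp2 (137). Of the G9ai-only genes there 5 were clustered protocadherins, as were 2 of the vehicle-only genes. Interferon and MHC class I genes had 4 on each side of 103, and cytokine genes 9 (3.9%) and 15 (6.49%) of 231. Socs3 and Tnfrsf12a had regions of both sides, and Socs1, which like Socs3 restrains cytokine signalling, was G9ai-only (79 and 166). Motile cilium genes had 7 (6.6%) and 8 (7.55%) of 106, and 7 and 3 at equal list lengths. The axonemal genes Spag16 (124 and 97) and Hydin (62 and 200) and Mcidas, a regulator of multiciliated cells (95 and 105), were G9ai-only, and Ccdc39 (158) was vehicle-only beside Foxj1.

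Cell type lists gave few genes. The gate makes the cells epithelial by label, and 4 of 26 epithelial identity genes had a G9ai-only region (15.4%, 4.36 to 34.9): Krt18, an epithelial keratin (133 and 144), Sox2, Foxa2 (66 and 90) and St14, a membrane protease (57 and 80). On the vehicle-only side there was 1, Spint2 (194), which encodes an inhibitor of such proteases. Alveolar type 2 genes had Lpcat1 (69 and 55) against Muc1 (92), alveolar type 1 genes had Cav2 (120 and 390) against Aqp5 (92) and Ahnak (74), and basal cell genes had Ngfr (73 and 56) against Aqp3 (182). The club and goblet list had Foxa3 alone. Of markers of other cells, Rac2 of 25 leukocyte genes (85 and 122) and Fn1 of 20 mesenchymal genes (55 and 96) were G9ai-only, and Erg (135) and Kdr (53) of 20 endothelial genes were vehicle-only. The 5 genes of the sort itself and 31 germline genes had no region on either side, and of 30 imprinted genes Igf2r alone had any, with both sides. The lists appear to hold mostly arm-specific peaks and so cannot check the sort.

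Both sides met at 89 genes, of 815 with a G9ai-only and 1425 with a vehicle-only region. Over all 21883 genes the shares were 3.72% and 6.51%, and whether 89 departs from them was not tested. The smallest distance between a G9ai-only and a vehicle-only region of such a gene had a median of 624 bp, was at most 500 bp in 40 genes and was over 2000 bp in 20. At Arrdc3 the regions lay 100 bp apart upstream of the start, at Pip4k2b 149 bp, at Col5a1 241 bp and at Socs3 303 bp. At Htra1 the vehicle-only region (105) began 470 bp beyond the G9ai-only region printed above, inside the gene. Usp8 was different: its vehicle-only region (140) lay 118 bp beyond the far end of the gene, 51874 bp from the printed promoter. Regions at gene ends more often had a region of the other side within 1000 bp than regions elsewhere, with 8.9% (6.94 to 11.2) against 5.3% (4.56 to 6.12) of G9ai-only regions, and 4.71% (3.64 to 5.99) against 2.42% (2.08 to 2.79) of vehicle-only regions. Within 500 bp the G9ai-only intervals overlapped (3.83 to 7.23 against 2.84 to 4.12), and within 10000 bp the G9ai-only shares were 22.6% (19.6 to 25.8) and 22.2% (20.8 to 23.7).

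Outside the lists the best-scoring G9ai-only genes included Dph5, an enzyme of diphthamide synthesis (282 and 182), C1rl (252 and 220), Tmem154 (240 and 217), the adaptor gene Crk (154 and 286) and Noct (159 and 191). The vehicle-only ones included Fxr1, a relative of the fragile X protein (429), Abhd15 (428) and the ammonium carrier gene Rhbg (384).

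Promoter sequence was compared over the 300 bases of 1 RefSeq promoter per gene for 17491 genes, of which 231 were overlapped by a G9ai-only and 290 by a vehicle-only region. Both sets were richer in GC and CpG than promoters at large. The median GC content was 60.7% and 60% against 56.3%, the median ratio of observed to expected CpG was 0.719 and 0.768 against 0.577, and 65.8% and 70% of promoters had a ratio of at least 0.6, against 48.4% of all. Of 12 short words searched on both strands, the GC box GGGCGG occurred in 64.5% (58 to 70.7) and 60% (54.1 to 65.7) against 46.3% of all promoters. The TATA box TATAAA occurred in 5.19% (2.71 to 8.9) and 10.7% (7.38 to 14.8) against 13.3%. Within the promoters with a CpG ratio of at least 0.6 the GC box shares came closer, at 77% and 68% against 74.1%, and the TATA box shares were 5.26% and 9.85% against 5.85%. Under a ratio of 0.6 the GC box shares were further apart, at 40.5% and 41.4% against 20.2%, and the TATA box shares were 5.06% and 12.6% against 20.4%.

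The ETS core CCGGAA was held by 28.1% (22.4 to 34.4) of G9ai-only and 18.3% (14 to 23.2) of vehicle-only promoters, against 19.1% of all. The intervals of the sides overlap slightly, and the difference was not tested. In the same CpG-rich class the shares were 36.2%, 22.7% and 31%. Within that class the G9ai-only share was nearer to that of all promoters, but the vehicle-only share was further below it and the sides were further apart. Under a ratio of 0.6 the shares were 12.7%, 8.05% and 7.93%. CCAAT, the word of the CCAAT box, was held by 35.1% (28.9 to 41.6) and 28.3% (23.2 to 33.8) against 39.2%. CACGTG, an E-box, was held by 9.96% (6.42 to 14.6) and 13.1% (9.44 to 17.5) against 7.91%, and within the CpG-rich class by 10.5% and 15.3% against 11.5%. TGACGTCA, a cAMP response element, was held by 4.76% and 2.07% against 2.33%, and GCGCATGC by 6.06% and 5.52% against 3.6%. The AP-1 word TGANTCA, the forkhead word TGTTTAC, the Runx word TGTGGTT, the RFX word GTTGCCA and the word ACTACAAT were each in at most 5.52% of the promoters of either side, with intervals that took in the share of all promoters. A word is a description of the sequence and not a bound site.

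**Figure D3:**
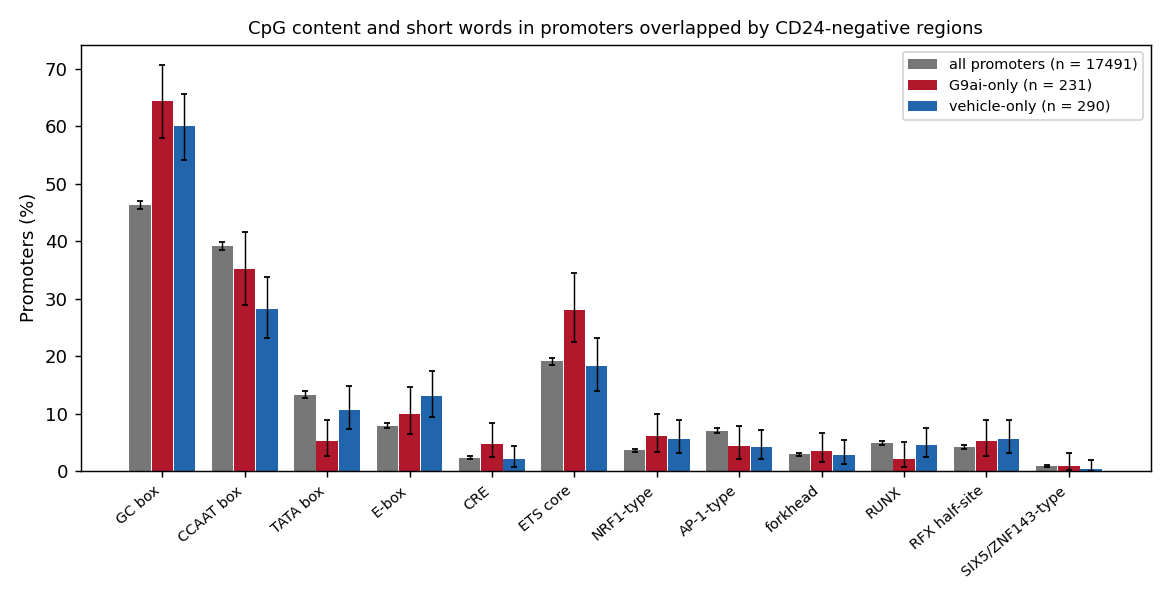
Share of promoters (%) that hold each of 12 short words, for 17491 promoters (grey), 231 overlapped by a G9ai-only region (red) and 290 overlapped by a vehicle-only region (blue); bars start at 0 and lines are 95% exact binomial intervals. The GC box is more frequent on both sides than over all promoters, and the ETS core is at 28.1% on the G9ai-only and 18.3% on the vehicle-only side, with intervals that overlap slightly.

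Some regions were also listed in the other sorted populations, which are CD24-low and CD24-high cells of the same study. Of G9ai-only regions at gene ends 12.7% (10.4 to 15.4) overlapped a peak of both CD24-low inhibitor lists and 5.89% (4.3 to 7.85) a peak of both CD24-low vehicle lists. By the same rule 6.04% of genes had a G9ai-only and 3.1% a vehicle-only region at an end in CD24-low cells, and 3.09% and 9.03% did in CD24-high cells. In CD24-high cells the overlap shares were 6.58% (4.89 to 8.62) with both inhibitor lists and 13.8% (11.4 to 16.6) with the 1 vehicle list. Of vehicle-only regions 8.53% and 5.24% overlapped the CD24-low inhibitor and vehicle lists, and 5.76% and 17.8% those of CD24-high cells. Both sides thus overlapped most with the longest lists, which are CD24-low inhibitor and CD24-high vehicle. With CD24-low inhibitor the G9ai-only share, 12.7% (10.4 to 15.4), lay above the vehicle-only share, 8.53% (7.08 to 10.2). That order also held for regions elsewhere, at 9.68% and 6.61%, so it is not particular to gene ends. G9ai-only regions at gene ends were also wider (median 184 against 131 bp), and the part of width was not tested. With CD24-high vehicle the vehicle-only share was higher, 17.8% (15.8 to 20) against 13.8% (11.4 to 16.6), and the intervals overlap. With CD24-low vehicle and CD24-high inhibitor the G9ai-only share was slightly higher, with overlapping intervals. The share was higher at gene ends than elsewhere in each of the 8 comparisons, with overlapping intervals in some. Of vehicle-only regions 5.24% (4.1 to 6.57) against 2.48% (2.14 to 2.86) overlapped CD24-low vehicle. The contrast was smallest for G9ai-only regions with CD24-high vehicle, at 13.8% (11.4 to 16.6) against 13.1% (11.9 to 14.3). For vehicle-only regions that list gave 17.8% (15.8 to 20) against 14.5% (13.7 to 15.4).

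**Figure D4:**
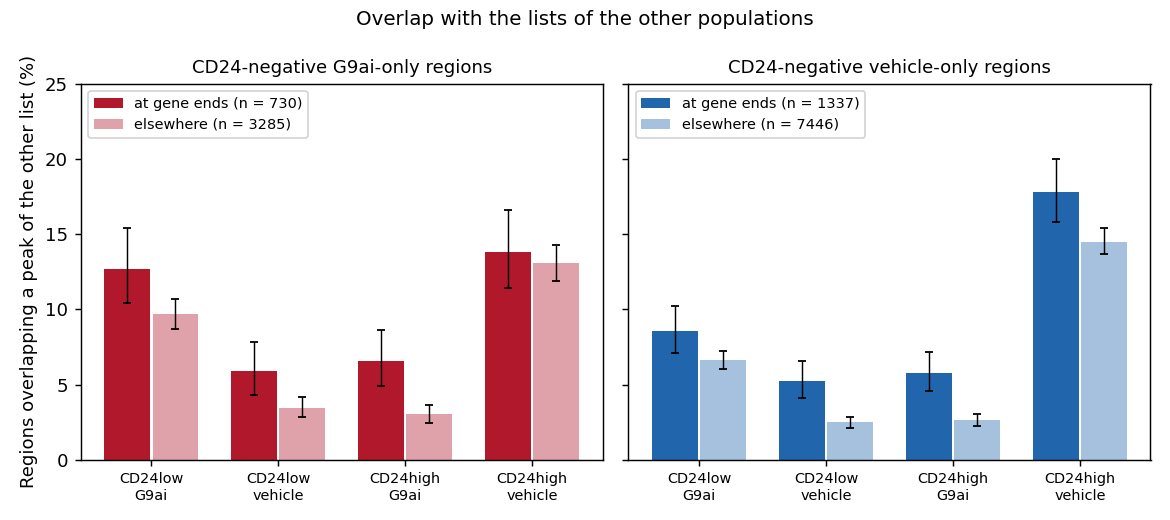
Share (%) of CD24-negative G9ai-only (left) and vehicle-only (right) regions that overlap a peak of each other list, at gene ends (dark) and elsewhere (pale); lines are 95% exact binomial intervals, and where an arm has 2 lists both had to overlap. The highest bar of each panel is CD24-high vehicle, at 13.8% and 17.8% for gene ends.

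Members that kept their arm across populations included Dph5, Lrrc34, Mrpl38 and Arhgef2, also listed in both CD24-low inhibitor lists, and Krt18 and Mrpl38, also in both CD24-high inhibitor lists. Members listed in the opposite arm elsewhere included Atp6v1e1, Marchf4 and Zfp882, G9ai-only here and listed in both CD24-low vehicle lists, and Ddx3x, Crk and Dcp1a, listed in the CD24-high vehicle library. On the vehicle-only side Aqp3, Nfkbia, Psmd11 and Kat2a were also in both CD24-low vehicle lists, and Irf2, Zfp84 and H2ac10 in the CD24-high vehicle list. Opa1 and Slc13a2 were vehicle-only here and in both CD24-low inhibitor lists. Aqp3 and Nfkbia were in the CD24-high inhibitor lists as well, so their arm changed with the population.

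The 2 inhibitor libraries ranked their shared regions only loosely. Over the 730 regions Spearman's rank correlation between their scores was 0.28, and over the 3285 regions elsewhere 0.27; both are descriptions across regions of the same libraries. The higher score was a median of 1.38 times the lower at gene ends and 1.35 times elsewhere, but it was more than 3 times the lower in 40 regions at gene ends (5.48%) against 1.46% elsewhere. Replicate 3 had the higher score in 67.1% of regions at gene ends and 58.1% elsewhere. Sox2, Med16, Dcp1a and Atp6v1e1 are among the regions far higher in replicate 3, and Chchd3 and Ski among those far higher in replicate 2.

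**Figure D5:**
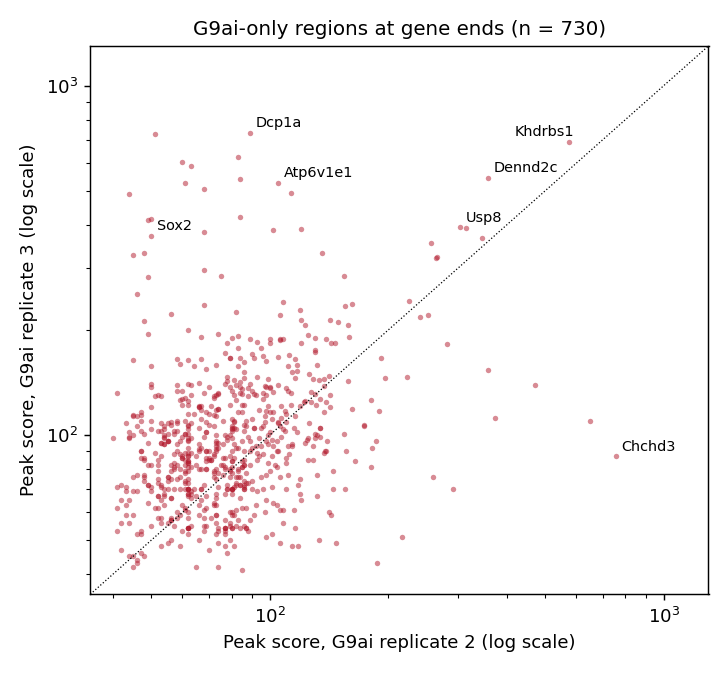
Peak score of each of the 730 G9ai-only regions at gene ends in inhibitor replicates 2 and 3, both on log axes; the dotted line marks equal scores and 7 named regions are labelled. Most points lie under 200 on both axes, and Usp8, Khdrbs1 and Dennd2c score high in both libraries whereas Chchd3 does so only in replicate 2 and Dcp1a and Sox2 only in replicate 3.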

How the data were processed

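The deposited files are peak lists, 1 per library, of intervals with a name and a score. The submitters' processing notes name FastQC, Bowtie2, MACS2 and build mm10; no version, setting or read shifting is stated in the sources used here. The authors' deposited score has no stated scale and was used only within a list. How peaks were selected for the lists is unknown. Only 86 of the 12957 CD24-negative regions had peaks in both arms, so the lists are read here as mostly arm-specific. Depth is unknown, and such lists do not show that a site was closed in the other arm.

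Repeated lines (148 to 180 per CD24-negative list) were dropped and peaks merged with Python 3.11.15 (pandas 2.3.3, SciPy 1.17.1). Regions were linked to every protein-coding gene of the RefSeq table of GRCm38.p6, mitochondrial genes left out, with an end within 1000 bp. Strand came from the promoter table, for 17491 of 21883 genes. The code was checked on simulated peaks. Groups came from the sample titles. With 2 inhibitor libraries and 1 vehicle library no test was run.

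Members and lists were chosen with earlier results of these data known, and names that list patterns had caught by chance were removed after regions were seen. Up to 4 genes per list and side, 12 per side outside lists and 10 per kind (both sides, both ends, other populations) were named by within-library score percentile, leaving out predicted and receptor cluster symbols. Wiz, Uhrf1, Cbx5, Atf7ip, Myc, Klf4, Rela, Areg and lists given in full were named after their values were seen. Alternatives were other windows, overlaps, score floors, equal list lengths, repeated lines kept and 1 library left out. A few withheld items, 1 gene list among them, are not reported here.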

Additional observations from a re-analysis of the deposited data

Results flagged for a closer look

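In CD24-negative cells both inhibitor lists had a larger share of peaks at gene ends than the vehicle list (mean 18.1% against 15.2%, a difference of 2.88 percentage points). In CD24-low cells the order was the opposite: both inhibitor lists lay below both vehicle lists (16.9% against 24.4%, a difference of -7.51 points). The lists of an arm hold largely the same regions, so their agreement is no independent repeat. In CD24-low cells, inhibitor lists of 7379 and 7361 peaks gave 7172 G9ai-only regions, each with a peak in both. The difference between the populations was not tested. In both populations the arm with the shorter lists had the larger share.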

How the results depend on the processing

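No paired analysis was possible because the vehicle arm has 1 library and the results come from no test. Leaving out 1 inhibitor library gave 742 to 743 G9ai-only regions (18.1% to 18.3%) at 818 to 821 genes and 1338 to 1342 vehicle-only regions (15.2% to 15.3%) at 1427 to 1429 genes; without vehicle replicate 3 no side can be defined. Keeping the higher-scoring 50% of peaks left 246 G9ai-only regions (20.5%) at 287 genes and 664 vehicle-only regions at 736 genes. At equal list lengths 625 vehicle-only regions at 694 genes were left. That setting kept the inhibitor lists, of 4173 and 4149 peaks, nearly whole. In the higher-scoring 50% of every list, G9ai-only and vehicle-only genes numbered 2 and 2 for chaperones and 2 and 4 for chromatin remodellers. They were 0 and 4 for growth factors, 0 and 2 for the respiratory chain and 8 and 14 for membrane traffic. The G9ai-only count was higher for MAP kinase, PI3 kinase and mTOR genes, at 5 and 3. It was higher for RNA decay, at 5 and 4, and motile cilium genes, at 4 and 3. A window of 500 bp held 13.1% and 10.3% of the regions, and a window of 2000 bp 23.2% and 21.2%. Of 71 list counts of at least 5 genes, 64 moved by over 1.5 times in the higher-scoring 50%, 36 at equal list lengths, 20 at 500 bp and 17 at 2000 bp. None did with repeated lines kept, a 50% overlap, an inhibitor library left out, predicted genes left out or X and Y left out. The counts over all genes moved by over 1.5 times too. They fell from 815 to 287 and from 1425 to 736 in the higher-scoring 50%. At equal list lengths the vehicle-only count fell from 1425 to 694. Most list counts therefore had to move at those settings, whatever their standing against the background. Leaving out an inhibitor library could change little, since the 2 lists hold nearly the same regions. Only 73 of the 12957 regions had a peak in 1 inhibitor list and in no other list.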

Other observations

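Regions of the sex-linked genes also differed in the other populations, whose labels give no sex. The CD24-high vehicle list had 5 regions on Y, 4 of them at Eif2s3y, Uty and Ddx3y with scores from 115 to 254, as in the CD24-negative vehicle list. Both CD24-high inhibitor lists and both CD24-low vehicle lists had a region inside Xist, with scores of 84 and 147 and of 59 and 55. At gene ends CD24-low cells had 1213 G9ai-only and 615 vehicle-only regions and CD24-high cells had 613 and 1873, so the side with more regions changed between populations.

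Histone genes had 10 of 78 (12.8%) vehicle-only and 1 (1.28%) G9ai-only in CD24-high cells, where the shares over all genes are 9.03% and 3.09%. In CD24-low cells they had 1 and 3, where those shares are 3.1% and 6.04%. Proteasome genes numbered 5 vehicle-only and 1 G9ai-only of 50 in CD24-high cells and 2 and 7 in CD24-low cells. In each case the larger count fell in the arm with more genes, and the difference between populations was not tested. Alveolar type 1 genes had 9 of 22 with a vehicle-only region in CD24-high cells (40.9%, all genes 9.03%), and 2 of 22 in CD24-negative cells (9.09%, all genes 6.51%).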
